A study of Mus musculus with 12 samples.

Results

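The PDGF ligands and receptors were the 4 platelet-derived growth factor genes Pdgfa, Pdgfb, Pdgfc and Pdgfd and the 2 receptor genes Pdgfra and Pdgfrb. They were chosen by gene name, and all 6 were found among the 17710 genes of the deposited liver table. PDGF chains are secreted as dimers and act on receptor tyrosine kinases of class III on mesenchymal cells. PDGF-A and PDGF-B are released in active form, whereas PDGF-C and PDGF-D carry a CUB domain that a protease must remove first. In injured liver, PDGF is known as a mitogen and attractant of hepatic stellate cells, the pericyte-like cells that make collagen in fibrosis.

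Bulk liver RNA was sequenced from 12 wild-type male mice, 8 weeks old at purchase and fed for 10 weeks, with 3 mice in each of 4 groups. The groups were ICR mice on CDAHFD, ICR mice on ND (normal diet), C57BL/6J mice on CDAHFD and C57BL/6J mice on ND. CDAHFD is a high-fat diet without added choline and with lowered methionine, its protein given as defined L-amino acids. ICR is an outbred stock and C57BL/6J an inbred strain, and the study set out to ask how the strains differ in diet-induced steatohepatitis. Library totals were 29665092 to 30826629 counts in ICR CDAHFD, 23363460 to 24205176 in ICR ND, 24612309 to 32214782 in C57BL/6J CDAHFD and 22245245 to 22752858 in C57BL/6J ND livers, and every member had at least 11 counts in every library. The tissue label was checked with 9 hepatocyte markers, whose summed level lay between 46665 and 129245 CPM (counts scaled by library size and composition to the same total) in all 12 libraries.

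RefSeq promoters were found for 4 members, and those of Pdgfc, Pdgfd and Pdgfra are shown because the genes rose together on CDAHFD. The bases just after the RefSeq start were found in a GENCODE transcript for Pdgfc but not for Pdgfd or Pdgfra. For Pdgfa they were found too, but its windows fell within its longer GENCODE gene and are not shown. Each run is the 250 bases before the RefSeq start in GRCm38.p6, read 5′ to 3′ on the plus strand, at chr3:81036166-81036415 for Pdgfc, chr9:6168236-6168485 for Pdgfd and chr5:75152001-75152250 for Pdgfra. Capitals mark a TEAD motif (GGAATG) and a CArG box, the site of serum response factor, in Pdgfc, and a TATA box (TATAAA) in Pdgfd.
Pdgfc: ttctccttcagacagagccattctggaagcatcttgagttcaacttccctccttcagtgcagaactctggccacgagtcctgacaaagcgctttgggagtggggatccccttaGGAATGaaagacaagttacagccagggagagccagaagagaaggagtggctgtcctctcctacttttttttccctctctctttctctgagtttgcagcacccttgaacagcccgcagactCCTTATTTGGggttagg
Pdgfd: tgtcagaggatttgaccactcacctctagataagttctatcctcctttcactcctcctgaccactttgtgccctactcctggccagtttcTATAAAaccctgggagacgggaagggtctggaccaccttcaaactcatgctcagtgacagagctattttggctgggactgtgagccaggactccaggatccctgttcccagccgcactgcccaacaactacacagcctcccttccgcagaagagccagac
Pdgfra: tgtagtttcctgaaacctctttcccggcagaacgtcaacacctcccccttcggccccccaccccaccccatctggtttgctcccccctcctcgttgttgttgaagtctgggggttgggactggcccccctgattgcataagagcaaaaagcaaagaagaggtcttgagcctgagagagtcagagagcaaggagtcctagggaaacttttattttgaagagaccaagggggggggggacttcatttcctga
Both strands were searched for 6 motifs, and Pdgfra had no match to any of them. Of 32851 promoters of the same length, 12.6% held the TEAD letters, 1.47% a CArG box and 12.4% the TATA letters. The GC box (GGGCGG, in 32.7% of promoters), the AP-1 site (TGANTCA, 6.75%) and the EGR1 site (GCGNGGGCG, 4.7%) were not found in the windows shown. The Pdgfa windows, not shown, held GC boxes, 1 in the window from chr5:138994282 and 2 in that from chr5:138994945. A match is a stretch of letters only, and no binding was measured.

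All 6 members rose on CDAHFD in ICR livers and all 6 rose in C57BL/6J livers, and for each gene the libraries of the diets did not overlap. All 3 CDAHFD libraries lay above all 3 ND libraries for 27.5% of the genes tested in ICR and 30.6% in C57BL/6J. Over all genes tested, 20.1% rose and 16.5% fell in ICR, and 26% rose and 21.2% fell in C57BL/6J, at an adjusted p under 0.05. The median log2 fold change of the members was 2.40 in ICR and 2.55 in C57BL/6J, against -0.01 and 0.00 for all genes tested. With library size alone as the scaling, the median of all genes was 0.59 in ICR and 0.66 in C57BL/6J, and the members lay between 2.06 and 4.88 in ICR and between 2.35 and 3.85 in C57BL/6J, all 6 still called in each strain. Fold changes and adjusted p values come from edgeR's quasi-likelihood test with Benjamini-Hochberg adjustment over all genes, with CDAHFD over ND. In bulk tissue, more cells of a type and more RNA per cell cannot be told apart.

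**Figure D1:**
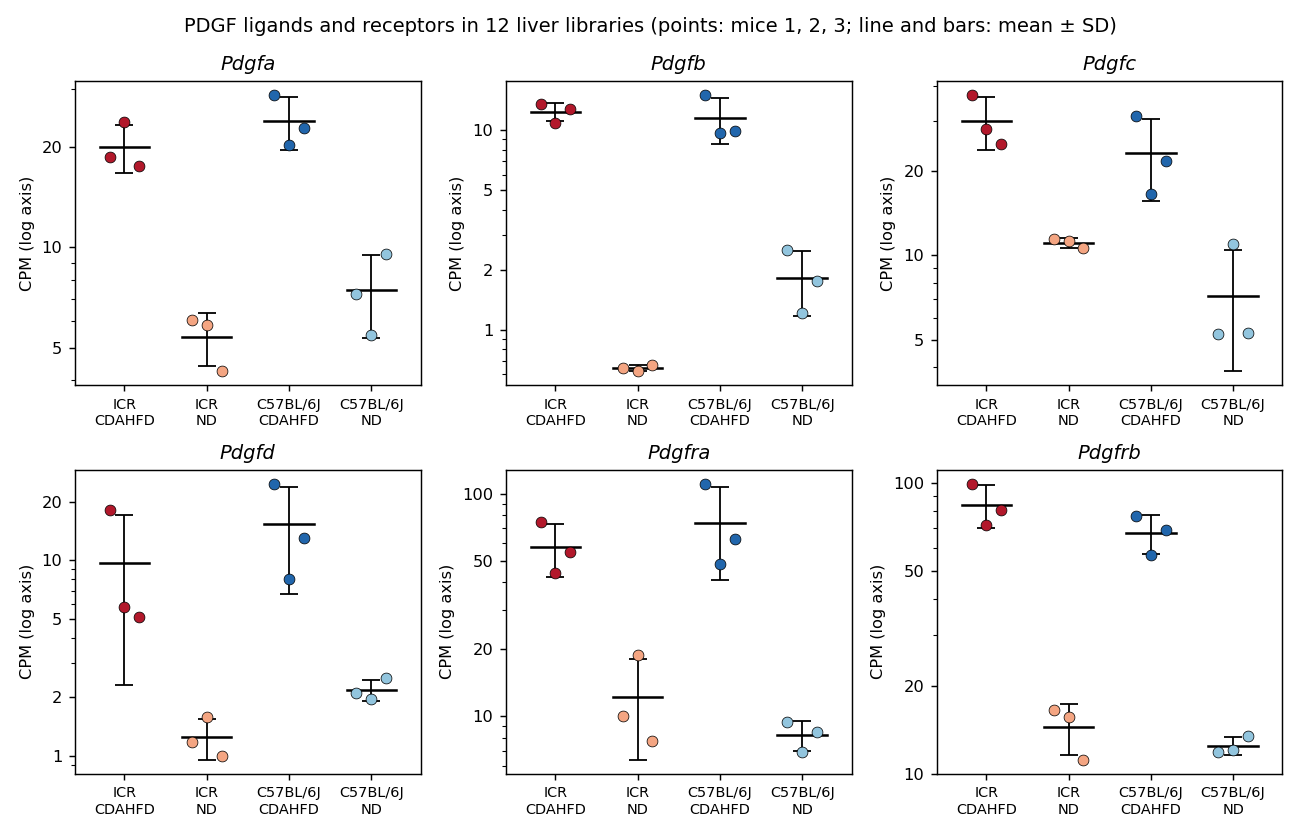
CPM of each PDGF ligand and receptor (vertical log axis) in the 12 liver libraries by group, with points for mice 1, 2 and 3 and lines and bars for the mean ± SD. In every panel the 3 CDAHFD libraries of a strain lie above its 3 ND libraries, and Pdgfb is lowest in ICR ND, between 0.619 and 0.662 CPM.

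Pdgfa encodes the A chain, whose homodimer binds PDGFRα. It had 18.7, 23.8 and 17.6 CPM in ICR CDAHFD livers, against 6.05, 5.86 and 4.25 CPM in ICR ND livers. C57BL/6J livers had 28.7, 20.4 and 22.8 CPM on CDAHFD, against 7.23, 5.46 and 9.58 CPM on ND. Every CDAHFD library of a strain was thus above its highest ND library. The log2 fold change was 1.90 in ICR (SE 0.20, adjusted p = 0.00103), which is 3.73-fold, and 1.69 in C57BL/6J (SE 0.23, adjusted p = 0.000374). The gene lies at chr5:138976014-138997370 on the minus strand (GRCm38) and shares this stretch with an antisense gene, 6330403L08Rik. No source used here gives the strand setting of the count, so reads of such pairs may not be separable.

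Pdgfb encodes the B chain, which binds both receptors and is known from endothelial cells, macrophages and platelets. It had 13.5, 10.9 and 12.9 CPM in ICR CDAHFD livers, against 0.639, 0.619 and 0.662 CPM in ICR ND livers, where each library held only 11 to 13 counts of the gene. C57BL/6J CDAHFD livers had 15.1, 9.67 and 9.94 CPM, against 2.51, 1.21 and 1.75 CPM in C57BL/6J ND livers. On CDAHFD the strains overlapped, whereas on ND the 3 ICR libraries lay below the 3 C57BL/6J libraries. The log2 fold change was 4.28 in ICR (SE 0.22, adjusted p = 0.000173), which is 19.4-fold and exceeded by 1.52% of the genes tested. In C57BL/6J it was 2.66 (SE 0.31, adjusted p = 0.000176), which is 6.32-fold. Pdgfb lies at chr15:79995874-80014977 on the minus strand, over the microRNA gene Mir7213 and the antisense gene Gm41361.

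Pdgfc encodes a CUB-domain ligand of PDGFRα. It had 37.2, 28.0 and 25.0 CPM in ICR CDAHFD livers, against 11.5, 11.3 and 10.6 CPM in ICR ND livers. In C57BL/6J, the CDAHFD livers had 31.3, 16.5 and 21.6 CPM, against 5.24, 11.0 and 5.30 CPM in ND livers. The second C57BL/6J ND mouse reached the ICR ND level, while the other two were near 5 CPM. The log2 fold change was 1.45 in ICR (SE 0.19, adjusted p = 0.00185) and 1.70 in C57BL/6J (SE 0.33, adjusted p = 0.00278). This was the smallest of the 6 fold changes in ICR, at 2.72-fold. Pdgfc lies at chr3:81036416-81214040 on the plus strand, opposite the antisense gene Gm16000.

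Pdgfd encodes the other CUB-domain ligand, which binds PDGFRβ. It had 18.2, 5.76 and 5.11 CPM in ICR CDAHFD livers, against 1.18, 1.58 and 0.993 CPM in ICR ND livers. It had 24.8, 8.03 and 13.1 CPM in C57BL/6J CDAHFD livers, against 2.09, 1.96 and 2.49 CPM in C57BL/6J ND livers. In both CDAHFD groups mouse 1 stood well above the other mice, and the coefficient of variation was 76.1% in ICR and 56.1% in C57BL/6J, the highest of the members on that diet. The log2 fold change was 2.97 in ICR (SE 0.58, adjusted p = 0.00798) and 2.81 in C57BL/6J (SE 0.40, adjusted p = 0.000526). Without ICR CDAHFD mouse 1 the ICR value was 2.11 (adjusted p = 0.00673). The gene lies at chr9:6168584-6378850 on the plus strand and spans the protein-coding gene Ddi1 on the other strand, which had 2 counts over the 12 libraries.

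Pdgfra encodes PDGFRα, the receptor of fibroblasts and stellate cells that accepts the A, B and C chains. It had 74.2, 44.1 and 54.5 CPM in ICR CDAHFD livers, against 10.03, 18.9 and 7.78 CPM in ICR ND livers. C57BL/6J CDAHFD livers had 111.0, 48.2 and 62.3 CPM, against 9.43, 6.90 and 8.47 CPM in C57BL/6J ND livers. The highest library was C57BL/6J CDAHFD mouse 1, and the second ICR ND mouse was the highest on ND. The log2 fold change was 2.26 in ICR (SE 0.35, adjusted p = 0.00365), which is 4.78-fold, and 3.16 in C57BL/6J (SE 0.31, adjusted p = 6.3e-05), which is 8.95-fold and the largest of the 6 in that strain. Pdgfra lies at chr5:75152292-75198215 on the plus strand and shares its stretch with Gm42802, Gm42803 and Mir7025.

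Pdgfrb encodes PDGFRβ, the receptor of pericytes and stellate cells for the B and D chains. It had 99.6, 71.9 and 80.9 CPM in ICR CDAHFD livers, against 16.6, 15.7 and 11.1 CPM in ICR ND livers. It had 76.9, 56.4 and 69.0 CPM in C57BL/6J CDAHFD livers, against 11.9, 12.02 and 13.4 CPM in C57BL/6J ND livers. No CDAHFD library was below 56.4 CPM and no ND library was above 16.6 CPM. The log2 fold change was 2.55 in ICR (SE 0.21, adjusted p = 0.000487) and 2.44 in C57BL/6J (SE 0.15, adjusted p = 6.51e-06), which is 5.85-fold and 5.43-fold. No other gene overlaps Pdgfrb in the GENCODE annotation.

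Whether a member's diet difference depended on the strain was tested with the strain by diet term, ICR minus C57BL/6J. None of the 6 members was called in edgeR's quasi-likelihood test, against 0.18% of all genes, and 1 member had an unadjusted p under 0.05. That member was Pdgfb, with a term of 1.61 (SE 0.40, unadjusted p = 0.00159, adjusted p = 0.173), meaning a larger log2 fold change in ICR. For Pdgfb, DESeq2 gave 1.63 with an adjusted p of 0.0271 and edgeR's likelihood ratio test gave 1.61 with an adjusted p of 0.0357, so that both called 1 of the 6. The adjusted p ranged between 0.1 and 0.408 over the other alternatives of the quasi-likelihood test. Pdgfra had the largest term in the other direction, -0.92 (SE 0.50, adjusted p = 0.615), and the terms of the other 4 genes lay between -0.26 and 0.21.

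The same 12 libraries gave the strain differences on each diet. On ND, 1 of the 6 members was called, against 21.5% of all genes in either direction and 10.1% lower in ICR. Pdgfb was lower in ICR ND than in C57BL/6J ND livers, with a log2 difference of -1.51 (SE 0.32, adjusted p = 0.00849). Pdgfd libraries did not overlap either and were lower in ICR ND, with -0.80 (SE 0.57, adjusted p = 0.333), which did not pass. Over all genes tested, 18.2% had all 3 ICR ND libraries below all 3 C57BL/6J ND libraries. Pdgfc had a difference of 0.63 (SE 0.30, adjusted p = 0.154), and without the second C57BL/6J ND mouse it was 1.08 (adjusted p = 0.0211). On CDAHFD, none of the 6 was called by the quasi-likelihood test or had an unadjusted p under 0.05, against 15.6% of all genes called. DESeq2 and the likelihood ratio test also called none of the 6 on CDAHFD. The difference of Pdgfb on CDAHFD was 0.10 (SE 0.24, adjusted p = 0.795) and that of Pdgfrb 0.32 (SE 0.17, adjusted p = 0.221). Pdgfd had -0.66 (SE 0.47, adjusted p = 0.361) with all libraries and -1.49 (adjusted p = 0.035) without ICR CDAHFD mouse 1.

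**Figure D2:**
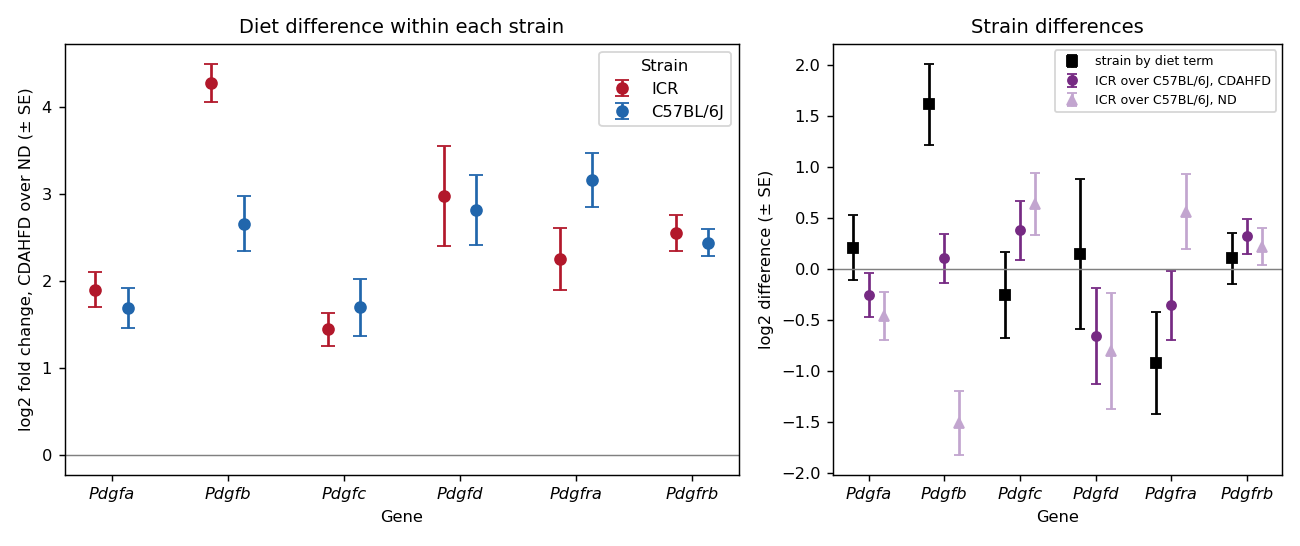
Left, log2 fold change of CDAHFD over ND (± SE) for each member in ICR and C57BL/6J. Right, the strain by diet term and the log2 difference of ICR over C57BL/6J on each diet (± SE). All diet values lie above 0, and Pdgfb has the largest ICR value, 4.28, with a strain difference on ND of -1.51 and on CDAHFD of 0.10.

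Levels of different genes were set side by side in FPKM, fragments scaled by transcript length and library size. The length implied by count, library total and FPKM ran between 2668 and 3347 bases for Pdgfb over the libraries. For Pdgfa it ran between 3096 and 3219 bases, so the deposited FPKM did not follow the counts by a fixed length. On CDAHFD, Pdgfrb had the highest mean in ICR, 18.1 ± 3.85 FPKM, and in C57BL/6J, 15.6 ± 3.85 FPKM (SD, n = 3 each). Pdgfra followed with 10.1 ± 3.15 FPKM in ICR and 14.1 ± 7.61 FPKM in C57BL/6J. In ICR CDAHFD the libraries of these receptors did not overlap, whereas in C57BL/6J CDAHFD they did. Below them in ICR CDAHFD stood Pdgfa with 7.69 ± 1.23, Pdgfc with 7.11 ± 1.83, Pdgfb with 5.15 ± 0.718 and Pdgfd with 3.90 ± 3.15 FPKM, each overlapping its neighbours in this order. In C57BL/6J CDAHFD the order was Pdgfa with 9.92 ± 2.77, Pdgfd with 6.37 ± 4.17, Pdgfc with 5.82 ± 2.44 and Pdgfb with 5.14 ± 1.89 FPKM, also with overlap between neighbours. ICR CDAHFD mouse 1 had the same deposited value for Pdgfa and Pdgfd, 7.53 FPKM, with 711 counts of Pdgfa and 691 of Pdgfd. The pair enters these means and the ligand shares, and the reason for the match was not tested.

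On ND the members lay closer together, except for the lowest pair. In ICR ND, Pdgfrb had 2.05 ± 0.486, Pdgfc 1.69 ± 0.133, Pdgfra 1.38 ± 0.642 and Pdgfa 1.34 ± 0.301 FPKM, with overlap between neighbours. Pdgfd at 0.310 ± 0.0700 FPKM was below all of these in ICR ND, and Pdgfb at 0.165 ± 0.0243 FPKM was below Pdgfd in every library. In C57BL/6J ND, Pdgfa had 1.95 ± 0.618, Pdgfrb 1.81 ± 0.216, Pdgfc 1.11 ± 0.457 and Pdgfra 0.970 ± 0.182 FPKM. Pdgfd at 0.572 ± 0.0781 and Pdgfb at 0.533 ± 0.185 FPKM were lowest there and overlapped. FPKM has no correction for the composition of a library, so ratios of FPKM between diets differ from the fold changes above.

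**Figure D3:**
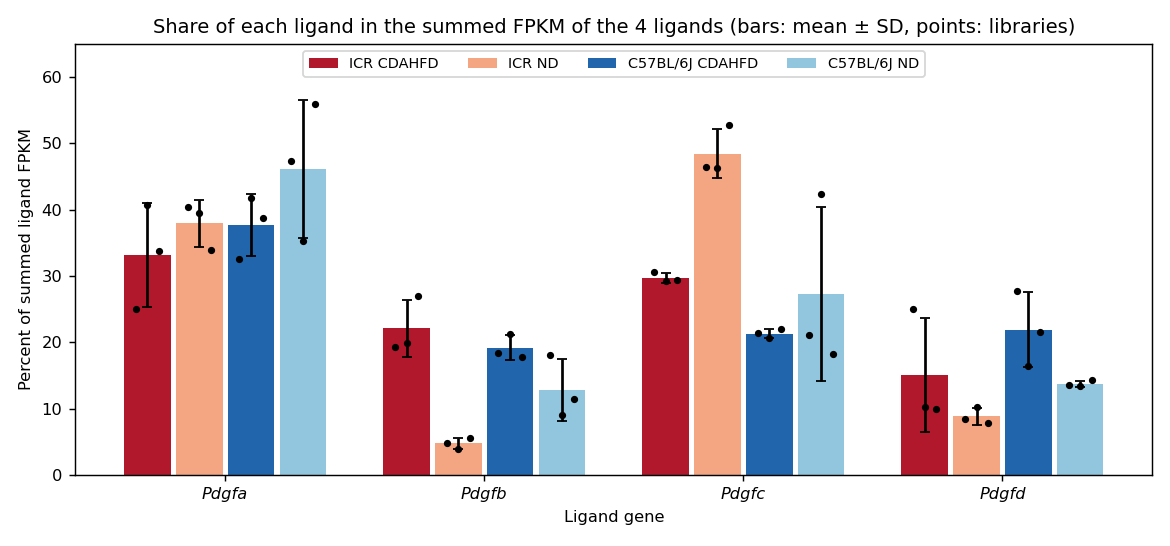
Share of each ligand (percent) in the summed FPKM of Pdgfa, Pdgfb, Pdgfc and Pdgfd, as mean ± SD bars per group with points for libraries. Pdgfb made up 22.1% on CDAHFD against 4.76% on ND in ICR, and 19.2% against 12.9% in C57BL/6J.

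As a share of the summed ligand FPKM, Pdgfb took 22.1% ± 4.30 in ICR CDAHFD livers, against 4.76% ± 0.829 in ICR ND livers (SD, n = 3 each). In C57BL/6J its share was 19.2% ± 1.87 on CDAHFD, against 12.9% ± 4.67 on ND. The ICR libraries did not overlap between the diets, and the C57BL/6J libraries did, since the lowest CDAHFD mouse had 17.8% and the first ND mouse 18.1%. Pdgfc had 29.7% ± 0.744 in ICR CDAHFD, against 48.5% ± 3.69 in ICR ND, where its share was the largest of the 4 ligands. In C57BL/6J the share of Pdgfc was 21.4, 20.6 and 21.9% on CDAHFD, against 21.1, 42.3 and 18.3% on ND, so that the diets overlapped and the second ND mouse was high. The share of Pdgfd was 25.1, 10.2 and 9.94% in ICR CDAHFD, against 8.34, 10.3 and 7.82% in ICR ND livers, also with overlap. In C57BL/6J it was 27.7, 16.4 and 21.5% on CDAHFD, against 13.5, 13.4 and 14.3% on ND, with no overlap. Pdgfa made up 33.2% ± 7.85 in ICR CDAHFD, 38.0% ± 3.56 in ICR ND, 37.7% ± 4.66 in C57BL/6J CDAHFD and 46.2% ± 10.4 in C57BL/6J ND livers.

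Ratios of 4 pairs of members were taken within each library, where scaling between libraries cancels, and the diets were compared with a two-sided exact permutation test within strains. The 400 arrangements allow no p below 0.005 for both strains together, and 3 mice against 3 allow none below 0.1 within a strain. The ratio of Pdgfa to Pdgfb counts was 1.39, 2.18 and 1.37 in ICR CDAHFD, against 9.15, 9.09 and 6.20 in ICR ND livers. It was 1.91, 2.11 and 2.29 in C57BL/6J CDAHFD, against 2.86, 4.44 and 5.42 in C57BL/6J ND livers. The ratio was therefore lower on CDAHFD in every library of both strains, by a mean log2 difference of -1.64 over the strains (exact permutation p = 0.005, adjusted over 4 ratios 0.01). The log2 difference was -2.32 in ICR and -0.97 in C57BL/6J.

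The ratio of Pdgfc to Pdgfd was 2.04, 4.85 and 4.87 in ICR CDAHFD, against 9.53, 7.04 and 10.4 in ICR ND livers. It was 1.26, 2.06 and 1.65 in C57BL/6J CDAHFD, against 2.48, 5.55 and 2.12 in C57BL/6J ND livers. Again each CDAHFD library was below the ND libraries of its strain, with a log2 difference of -1.10 (exact permutation p = 0.005, adjusted 0.01). The ratio of Pdgfb to Pdgfrb was 0.136, 0.152 and 0.159 in ICR CDAHFD, against 0.04, 0.0413 and 0.0617 in ICR ND livers. In C57BL/6J it was 0.196, 0.172 and 0.144 on CDAHFD, against 0.213, 0.103 and 0.132 on ND. The diets were apart in ICR, with a log2 difference of 1.67, and overlapped in C57BL/6J, with 0.25. Over both strains the difference was 0.96 (exact permutation p = 0.025, adjusted 0.0333), and it did not pass without C57BL/6J CDAHFD mouse 1 (0.91, adjusted p = 0.0533), C57BL/6J ND mouse 2 (0.84, adjusted p = 0.06) or C57BL/6J ND mouse 3 (0.93, adjusted p = 0.0533). The ratio of the receptors, Pdgfra to Pdgfrb, was 0.745, 0.613 and 0.674 in ICR CDAHFD, against 0.606, 1.205 and 0.699 in ICR ND livers. In C57BL/6J it was 1.44, 0.854 and 0.903 on CDAHFD, against 0.793, 0.575 and 0.631 on ND. The diets overlapped in ICR, with a log2 difference of -0.24, and were apart in C57BL/6J, with 0.65 (exact permutation p = 0.1, the smallest possible within a strain). Over both strains the difference was 0.20 (exact permutation p = 0.455).

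**Figure D4:**
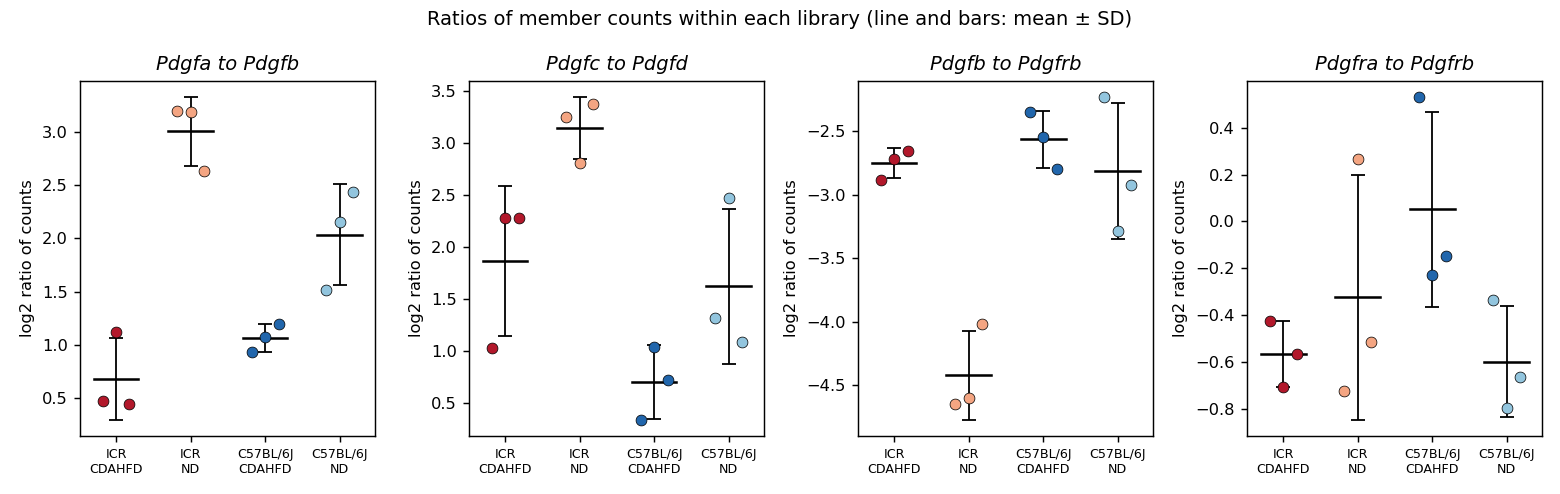
Log2 ratio of the counts of a pair of members in each library (vertical axis) by group, with lines and bars for the mean ± SD of 3 mice. The ratios of Pdgfa to Pdgfb and of Pdgfc to Pdgfd are lower on CDAHFD in both strains, by -1.64 and -1.10 over the strains, and the receptor ratio overlaps between the diets in ICR only.

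Within a group, some mice were high for several members at once. With the mean of each group taken off, mouse 1 was the highest of its group for Pdgfb, Pdgfc, Pdgfd, Pdgfra and Pdgfrb in both ICR CDAHFD and C57BL/6J CDAHFD. For Pdgfd it was 1.16 above the group mean in ICR and 0.84 above it in C57BL/6J on the log2 scale. Pdgfa was highest in mouse 2 of ICR CDAHFD and in mouse 1 of C57BL/6J CDAHFD. Over the 12 libraries, these deviations had r = 0.78 between Pdgfd and Pdgfra, 0.77 between Pdgfd and Pdgfrb and 0.75 between Pdgfra and Pdgfrb, and r = -0.16 between Pdgfa and Pdgfc. These correlations share their libraries and are given as descriptions.

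**Figure D5:**
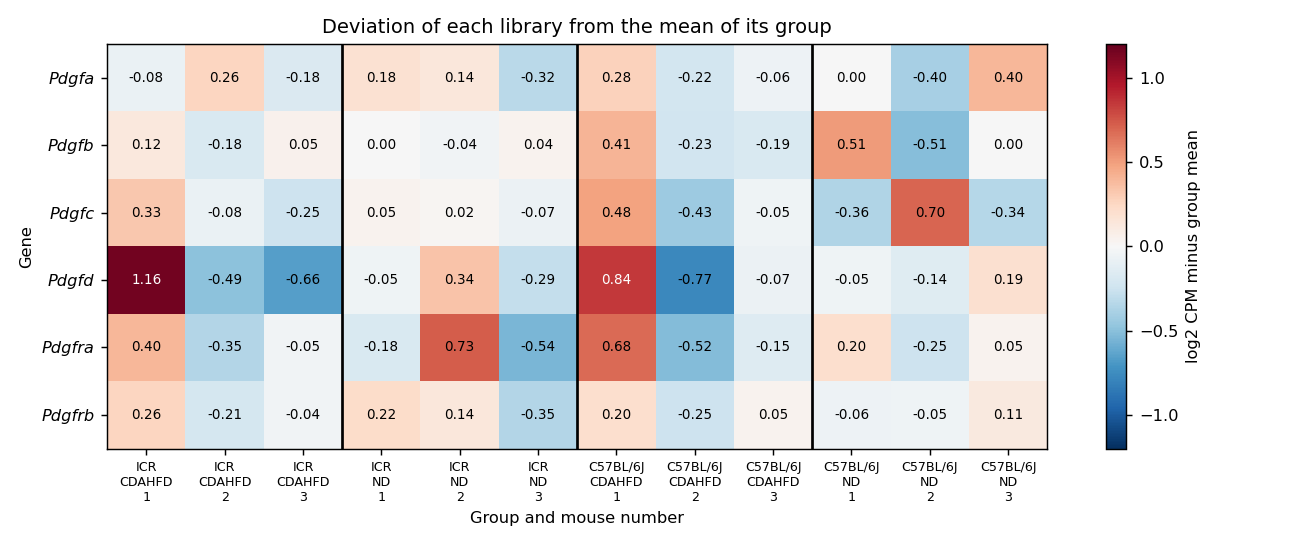
Log2 CPM of each member (rows) in each library (columns) minus the mean of its group, with the value printed in each cell. Mouse 1 of both CDAHFD groups is above its group mean for 5 of the members, most for Pdgfd, with 1.16 in ICR and 0.84 in C57BL/6J.

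The same CDAHFD libraries stood apart in cell type markers. The summed level of 7 cholangiocyte markers, genes of the bile duct lining, was 120 CPM in ICR CDAHFD mouse 1, against 36.8 and 31.3 CPM in the other mice of that group. In C57BL/6J CDAHFD it was 173 CPM in mouse 1, against 64.3 and 81.8 CPM. The 7 Kupffer cell markers, genes of resident liver macrophages, summed to 170 CPM in ICR CDAHFD mouse 1 and 94.9 CPM in C57BL/6J CDAHFD mouse 1, against 511 to 660 CPM in the other 4 CDAHFD mice. Their part in the PDGF values was not tested.

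The deviations of Pdgfd had r = 0.96 with those of the cholangiocyte markers over the 12 libraries, and those of Pdgfrb had r = 0.91 with the stellate cell and fibroblast markers. These were the highest values over all members and lists, and were named after they were seen. Pdgfd also had r = -0.86 with the hepatocyte markers. Pdgfra had r = 0.62 with the stellate cell and fibroblast markers, 0.64 with the cholangiocyte markers and -0.80 with the hepatocyte markers. Epcam, a surface protein of bile duct epithelium, was the gene most like Pdgfd among 13900, with r = 0.993 over 12 libraries and 0.975 with group means taken off. Epcam had 37.7, 8.62 and 5.69 CPM in ICR CDAHFD, against 1.38, 1.75 and 0.993 CPM in ICR ND livers. In C57BL/6J it had 56.2, 17.2 and 27.9 CPM on CDAHFD, against 2.51, 1.73 and 2.33 CPM on ND. Both genes had their highest library of each CDAHFD group in mouse 1. Next to Epcam stood Itgb4, an integrin chain of epithelia, with r = 0.989 and Vil1, an actin bundler of microvilli, with r = 0.988.

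Pdgfrb was most like Fbn1, which encodes the microfibril protein fibrillin, with r = 0.997, then the metalloproteinase inhibitor Timp2 with 0.995 and the matrix protein gene Thbs2 with 0.994. Pdgfra was most like Ezr, a linker of membrane and actin, with r = 0.988. Pdgfb was most like Aqp7, a glycerol channel, with r = 0.994 and Cd83, a protein of activated immune cells, with 0.993. Pdgfa was most like Fchsd1 with 0.983 and the collagen-modifying enzyme gene Plod2 with 0.982. Such values were common, with between 189 genes (Pdgfc) and 1147 genes (Pdgfrb) of 13900 having r above 0.9. They include the difference between the diets, and Aqp7 had 0 counts in every ICR ND library. With group means taken off, other genes came first. These were Tead2 for Pdgfrb (r = 0.958), Kdm4c for Pdgfra (0.955), Zbtb6 for Pdgfb (0.968) and Msc for Pdgfa (0.916).

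Plasminogen activators, which cleave the CUB-domain ligands, rose on CDAHFD in both strains. Of 11 proteases and ligand-binding partners tested in ICR, 5 rose and 1 fell, and of 10 in C57BL/6J, 5 rose and 3 fell. The shares of all genes were 20.1% rising and 16.5% falling in ICR and 26% and 21.2% in C57BL/6J. The median log2 fold change of this list was -0.23 in ICR and 1.27 in C57BL/6J. Plat, the tissue plasminogen activator that cleaves PDGF-C, averaged 27.3 CPM in ICR CDAHFD against 0.742 CPM in ICR ND, and 32.6 CPM in C57BL/6J CDAHFD against 1.09 CPM in C57BL/6J ND livers. Its log2 fold change was 5.18 in ICR (adjusted p = 0.00128) and 4.89 in C57BL/6J (adjusted p = 8.08e-06). Plau, the urokinase that cleaves PDGF-D, had log2 fold changes of 3.24 (adjusted p = 0.0033) and 3.86 (adjusted p = 3.36e-06). Sparc, a matrix protein that binds PDGF-B, had 2.21 (adjusted p = 0.00266) and 2.72 (adjusted p = 1.27e-05). Furin, a convertase that trims PDGF-A and PDGF-B, had -0.38 (adjusted p = 0.104) and -0.36 (adjusted p = 0.199), and was named after its values were seen. The listed convertase genes Pcsk6 and Pcsk5 were named in the same way. Pcsk6 fell, with -1.27 (adjusted p = 0.00109) in ICR and -0.63 (adjusted p = 0.0406) in C57BL/6J. Pcsk5 had -0.42 (adjusted p = 0.315) and -0.18 (adjusted p = 0.546).

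Genes that carry the signal inside the cell moved in both directions. Of 30 receptor signal transducers tested, 5 rose and 4 fell in ICR and 5 rose and 5 fell in C57BL/6J, with median log2 fold changes of 0.01 and -0.01. These counts stood near the shares of all genes, which were 20.1% rising and 16.5% falling in ICR and 26% and 21.2% in C57BL/6J. Src, a kinase that docks on the activated receptor, had a log2 fold change of 2.63 in ICR (adjusted p = 0.00214) and 2.54 in C57BL/6J (adjusted p = 8.25e-05). The adaptor Nck2 had 2.52 (adjusted p = 0.000677) and 1.86 (adjusted p = 0.000229), and the kinase Mapk3 had 1.28 (adjusted p = 0.00117) and 1.12 (adjusted p = 8.3e-05). Of 16 attenuators of receptor signalling, 4 rose and 1 fell in ICR and 8 rose and 2 fell in C57BL/6J. Among them Cblb, a ubiquitin ligase, had 0.99 (adjusted p = 0.00328) and 0.67 (adjusted p = 0.00517), Spred1 had 1.21 (adjusted p = 0.00484) and 1.25 (adjusted p = 0.00253), and the phosphatase Dusp6 had 1.15 (adjusted p = 0.00108) and 0.53 (adjusted p = 0.0312).

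Growth factor response genes, which many stimuli induce, mostly rose. Of 16 tested in ICR, 12 rose and 0 fell, and of 15 in C57BL/6J, 11 rose and 0 fell, with median log2 fold changes of 1.52 and 2.199. Among all genes tested, 20.1% rose and 16.5% fell in ICR, and 26% rose and 21.2% fell in C57BL/6J. Egr2 had 5.71 (adjusted p = 0.000389) in ICR and 5.05 (adjusted p = 0.000109) in C57BL/6J. It was near the floor on ND, with a mean of 0.280 CPM in ICR and 0.422 CPM in C57BL/6J, where 1 library had 0 counts. On CDAHFD its means were 15.1 and 14.4 CPM. The transcription factor gene Klf6 had 2.62 (adjusted p = 0.000599) and 2.93 (adjusted p = 4.1e-06), and the cyclin gene Ccnd1 had 2.72 (adjusted p = 0.000329) and 3.19 (adjusted p = 0.000119).

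The related VEGF family was described in the same way. Of 7 VEGF ligands and receptors tested, 1 rose and 1 fell in each strain. Over all genes, 20.1% rose and 16.5% fell in ICR, and 26% rose and 21.2% fell in C57BL/6J. Vegfa, the main endothelial growth factor, fell by 1.03 on the log2 scale in ICR (adjusted p = 0.0155) and by 0.70 in C57BL/6J (adjusted p = 0.0255). The lymphatic ligand gene Vegfc rose by 1.12 (adjusted p = 0.0137) and 1.55 (adjusted p = 0.00356), and its receptor gene Flt4 had 0.56 (adjusted p = 0.0545) and 0.27 (adjusted p = 0.413). No test compared the families with each other.

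Of the other class III receptor kinases and their ligands, 4 of 6 tested rose in ICR and 3 of 5 rose in C57BL/6J, and none fell. The shares of all genes were 20.1% rising and 16.5% falling in ICR and 26% and 21.2% in C57BL/6J. Csf1, the macrophage growth factor gene, had log2 fold changes of 1.57 (adjusted p = 0.00155) in ICR and 1.62 (adjusted p = 5.87e-05) in C57BL/6J, and Il34, the other ligand of its receptor, had 1.42 (adjusted p = 0.0347) and 2.08 (adjusted p = 0.000393). The receptor gene Flt3 had 3.26 (adjusted p = 0.00242) and 2.51 (adjusted p = 0.000639). Csf1r, the receptor gene for CSF1 and a neighbour of Pdgfrb that does not overlap it, was named after its values were seen. It had 6 and 2 counts in C57BL/6J CDAHFD mice 1 and 3 and 0 in the other 10 libraries. This was so although the macrophage gene Trem2 had 11389 counts over the 12 libraries, so the level of Csf1r was not read from these counts.

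Markers of stellate cells and fibroblasts, which bear PDGF receptors, mostly rose. Of 20 stellate cell and fibroblast markers tested, 15 rose in ICR and 17 rose in C57BL/6J, and none fell in either strain. Their summed level was 2372 to 2982 CPM in ICR CDAHFD, against 299 to 630 CPM in ICR ND, and 2110 to 3324 CPM in C57BL/6J CDAHFD, against 434 to 581 CPM in C57BL/6J ND livers. The collagen gene Col1a1 had log2 fold changes of 5.39 (adjusted p = 0.000187) in ICR and 4.88 (adjusted p = 4.03e-06) in C57BL/6J, Col1a2 had 4.44 (adjusted p = 0.000388) and 4.38 (adjusted p = 3.36e-06), and Col3a1 had 4.46 (adjusted p = 0.000626) and 4.26 (adjusted p = 5.18e-06). Lrat, the retinol-storing enzyme of stellate cells, had 1.47 (adjusted p = 0.00937) and 0.997 (adjusted p = 0.00151), and was named after its values were seen. Of 6 vascular mural cell markers, 1 rose in ICR and 3 rose in C57BL/6J, against 20.1% and 26% of all genes. The one in ICR was Mcam, named after its values were seen, with 1.16 (adjusted p = 0.0285), and it had 0.55 (adjusted p = 0.109) in C57BL/6J. Those in C57BL/6J were Rgs5 with 1.35 (adjusted p = 0.000377), Kcnj8 with 0.77 (adjusted p = 0.0147) and Abcc9 with 0.62 (adjusted p = 0.015), and Rgs5 had 0.82 (adjusted p = 0.0763) in ICR.

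Markers of cells known to release PDGF were set beside all genes. Of all genes tested, 20.1% rose and 16.5% fell in ICR, and 26% rose and 21.2% fell in C57BL/6J. Lipid-associated macrophage markers rose for 7 of 8 genes in each strain, and Trem2 had log2 fold changes of 5.15 (adjusted p = 0.000798) in ICR and 5.68 (adjusted p = 9.4e-07) in C57BL/6J. Of 7 Kupffer cell markers none rose, 1 fell in ICR and 2 fell in C57BL/6J, with median log2 fold changes of -0.47 and 0.09. Cd163 fell by 4.78 (adjusted p = 0.00225) and 4.51 (adjusted p = 0.000948) on the log2 scale. Cd5l went the other way without being called, with 0.40 (adjusted p = 0.601) and 1.23 (adjusted p = 0.0975). Endothelial markers rose for 2 of 10 genes in ICR and 1 of 10 in C57BL/6J, and none fell. Of platelet and megakaryocyte markers, 1 of 5 rose in ICR, while 1 of 4 rose and 3 fell in C57BL/6J. The one that rose, Pf4, had 2.95 (adjusted p = 0.00286) and 2.18 (adjusted p = 0.00223), whereas Itga2b had -0.65 (adjusted p = 0.0559) and -0.72 (adjusted p = 0.0273). The summed platelet level was 5.96 to 9.65 CPM in ICR CDAHFD, 8.39 to 10.3 CPM in ICR ND, 9.15 to 10.5 CPM in C57BL/6J CDAHFD and 9.95 to 14.6 CPM in C57BL/6J ND livers. With group means taken off, Pdgfb had r = -0.23 with the lipid-associated macrophage markers and -0.61 with the Kupffer cell markers. Its r was -0.05 with the endothelial markers and -0.54 with the platelet and megakaryocyte markers.

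Cholangiocyte markers rose for 6 of 6 genes tested in ICR and 6 of 7 in C57BL/6J. Their summed level was 31.3 to 120 CPM in ICR CDAHFD, against 11.4 to 15.8 CPM in ICR ND, and 64.3 to 173 CPM in C57BL/6J CDAHFD, against 26.5 to 35.7 CPM in C57BL/6J ND livers. Of 9 hepatocyte markers, 7 fell in each strain and none rose. Among all genes tested, 20.1% rose and 16.5% fell in ICR, and 26% rose and 21.2% fell in C57BL/6J. Of the markers of other tissues, 3 were tested in ICR and 2 in C57BL/6J, and 1 fell in each strain, the pancreas-associated Cela1. The cholangiocyte list rose with the PDGF genes on CDAHFD, and the hepatocyte list mostly fell. The part of the cell type lists in the PDGF differences was not tested.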

How the data were processed

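Raw gene counts were used as deposited. For trimming, alignment and counting the authors ran fastp (0.23.4), then HISAT2 (2.2.1), then featureCounts (2.0.6), with edgeR (4.0.16) for their own tests. The submitters' processing notes name mm39 and the methods mm10, and no source used here states the annotation or strand setting. The labels describe mRNA purification and the methods removal of ribosomal RNA. The deposited FPKM, also computed by the authors, served only to compare levels between genes. Another 12 columns of the authors' CPM were not used. After 3 repeated lines of 17713 were dropped, 17710 genes remained. Replicates were separate mice. Sample titles and columns write CDHFD where the treatment label writes CDAHFD, and the treatment label was followed.

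The count test was run with edgeR (4.0.16, limma 3.58.1, under R 4.3.3), using filterByExpr (count minimum 10, total minimum 15), TMM scaling, the quasi-likelihood F test and Benjamini-Hochberg adjustment over all genes tested, called at 0.05. Diet was fitted within a strain, and strain terms in all 12 libraries (13901 genes). SE was the log2 fold change over the root of F. CPM used TMM-scaled totals, and log2 CPM a prior count of 2. Ratios had 0.5 added to each count. DESeq2 1.42.0, the likelihood ratio test, other scalings and filters, a replicate block and leaving out each library were alternatives. The fit was tested on simulated data. Positions and overlaps came from GENCODE on GRCm38. Promoters came from RefSeq on GRCm38.p6 and were taken for 4 of the 6 members, with those on chromosome 18 left out.

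The members and 15 other gene lists (189 symbols in all, 185 found) were chosen with earlier results of these data known. From each list the 3 genes with the smallest p over the diet comparisons could be named, and for each member the 5 most like it.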

Additional observations from a re-analysis of the deposited data

How the results depend on the processing

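All 6 members were called in both diet comparisons under every alternative run. The count called for the strain by diet term was 1 with DESeq2 and 1 with the likelihood ratio test, against 0. Leaving out each mouse gave 0 to 1 called on CDAHFD between strains and 1 to 2 on ND. The CDAHFD minus ND difference of the log2 ratio of Pdgfb to Pdgfrb ranged between 0.84 and 1.11 when a mouse was left out. Small terms changed sign. The strain by diet term of Pdgfd was -0.68 without ICR CDAHFD mouse 1, -0.20 without C57BL/6J CDAHFD mouse 2 and -0.20 without mouse 1 of both CDAHFD groups, an alternative chosen after seeing the data. That of Pdgfrb was -0.034, -0.049 and -0.056 without ICR CDAHFD mouse 1, ICR ND mouse 3 and C57BL/6J CDAHFD mouse 2, and that of Pdgfa -0.016 without C57BL/6J ND mouse 3. Between strains on CDAHFD, Pdgfb was -0.013 with library size only and -0.060 without C57BL/6J CDAHFD mouse 2, and Pdgfra 0.016 without C57BL/6J CDAHFD mouse 1. With a mouse left out, the strain by diet terms ran between -0.68 and 0.65 for Pdgfd, -0.056 and 0.22 for Pdgfrb, and -0.016 and 0.39 for Pdgfa, and the CDAHFD differences between -0.060 and 0.30 for Pdgfb and -0.64 and 0.016 for Pdgfra. The causes were not tested.

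Over all genes, library size only moved the median diet log2 fold change by 0.61 in ICR and 0.65 in C57BL/6J. For diet in ICR it called 7608 genes against 4883, and leaving out mice gave as few as 3202. The strain by diet term had 25 genes called, 14 with library size only, 41 with no filter, 241 with DESeq2, 232 with the likelihood ratio test, and 6 to 136 with a mouse left out. Strain genes fell to between 760 and 1370 of 2172 on CDAHFD and between 1255 and 1746 of 2982 on ND with some mice left out, and to 920 on CDAHFD without mouse 1 of both groups. Within a strain, deviations of mice of the same number on the 2 diets had r = -0.03 to 0.17, against -0.22 to 0.19 for mice of different numbers. Between the strains r was 0.40, 0.31 and 0.09 on CDAHFD and 0.20, 0.15 and -0.11 on ND for mice 1, 2 and 3. The paper describes its heatmap as corrected for a batch effect, and no such correction was applied in the main test here. With a replicate block the strain by diet term of Pdgfb was 1.61 (adjusted p = 0.103) and 12 genes were called, and no member's call changed. Pdgfb had 11 to 13 counts per ICR ND library, which limits its precision there.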
